A study of Gallus gallus with 6 samples.

Results

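The genes described here encode carriers that move inorganic ions and metals across cell membranes, measured in RNA of chicken ovarian cancer cells. They were taken by name, as every gene of the solute carrier families SLC4, SLC8, SLC9, SLC12, SLC20, SLC24, SLC26, SLC30, SLC34, SLC39 and SLC41 in the deposited annotation. This gave 71 genes of 16963 with a gene ID. Of the 71, 62 had 10 or more estimated counts over all libraries, and 54 passed the filter on low counts and were tested. The name rule also took in 3 genes that are not carriers. SLC9A3R1 and SLC9A3R2 encode the scaffold proteins NHERF1 and NHERF2, and SLC4A1AP encodes kanadaptin.

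The cells came from ascites of chickens with ovarian adenocarcinoma and were grown as 3 primary lines, C27, C29 and C30. Cells of each line were separated by flow cytometry into a fraction with aldehyde dehydrogenase (ALDH) activity, ALDH+, and a fraction without it, ALDH-, a sort often used to enrich stem-like tumour cells. The cells were grown on gelatin-coated flasks to confluence and freed with trypsin, and the labels name no drug, genetic change or sorting gate. Each line gave 1 library per fraction, 6 in all, with totals of 22098151 to 26665551 estimated counts assigned to genes, and the labels name the lines as replicates 1, 2 and 3 in this order. Both fractions of a line were sorted from the same cells. The labels describe the lines as primary lines and do not say from how many birds each came, so p-values measure the spread between these libraries.

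Ion carriers set the pH, volume and salt content of a cell. SLC9 proteins swap sodium for protons, SLC4 proteins carry bicarbonate, and SLC12 proteins carry chloride together with sodium or potassium. SLC8 and SLC24 proteins exchange sodium for calcium, SLC26 proteins exchange anions, and SLC20 and SLC34 proteins import phosphate. SLC30 proteins (ZnT) take zinc out of the cytosol and SLC39 proteins (ZIP) bring it in, while SLC41 proteins carry magnesium. These roles are known mainly from mammals.

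Marker genes of several cell types were detected. Fibroblast genes were at high levels in both fractions, with COL1A1 at 12270 and 17590 CPM (read counts scaled to the library's total with TMM factors) on average in ALDH- and ALDH+. Of the epithelial and ovarian carcinoma markers, 9 of 13 were found by name. KRT7 stood at 1435 and 2233 CPM, whereas EPCAM, the defining epithelial surface marker, was at 0.885 and 0.992 CPM. Of the 7 of these that were tested, CDH1, or E-cadherin, fell from 20.5 to 1.21 CPM (edgeR adjusted p = 0.047), while KRT18 and WT1 rose in a model with the line as a block. In that model 4 of 12 fibroblast markers rose as well, LUM, MFAP5, PDGFRA and PDGFRB, where 5.92% of all genes rose and 7.61% fell. The other fibroblast markers were not called, among them COL1A1, COL1A2 and COL3A1 (edgeR adjusted p with the block = 0.333, 0.112 and 0.102). Without the block 5.3% of all genes fell in ALDH+ cells, and of 15 measured macrophage markers 14 fell. The summed level of the 15 was 6025 to 11940 CPM in the ALDH- and 194.2 to 367.7 CPM in the ALDH+ libraries, with none of the 15 at 0. Among 4 measured markers of heterophils and mast cells, CSF3R, LYZ, S100A12 and KIT, all fell. CATHL2 of the same list had no counts, and CATHL1 stood at 0 to 0.275 CPM and was not tested. Among 8 measured lymphocyte markers 5 fell, namely PTPRC, IL2RG, IKZF1, BLK and CD5. The others of the 8 were not called, with CD3E at a log2 change of 1.29, CD3D at -0.585 and LCK at -0.193 (edgeR adjusted p = 0.197, 0.531 and 0.839). Too low to be tested were PAX5, with no counts, CD4 at 0 to 0.168 CPM, CD79B at 0.121 to 0.349 CPM and ZAP70 at 0.0379 to 0.406 CPM. Of the erythroid and thrombocyte list, TAL1, the 1 gene tested, fell from 22.9 to 0.748 CPM (adjusted p = 0.00214). The haemoglobin genes HBA1 and HBAD had no counts, and HBBA stood at 0.321 to 1.05 CPM in ALDH- and 0 to 0.101 CPM in ALDH+ libraries. In such bulk samples, fewer cells of a type and less RNA per cell cannot be told apart. The part of these other cells in the results below was not tested.

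Levels between genes were compared in TPM (a share of all transcripts, which accounts for transcript length). Of the 71 members 26 averaged at least 10 TPM over the 6 libraries, 20 lay between 1 and 10 TPM and 25 stayed under 1 TPM. The most abundant was SLC39A13, a zinc carrier of the secretory pathway known for connective tissue in mammals, at a mean of 51.8 TPM and a range of 20.6 to 84.9. SLC30A5, a zinc carrier of the Golgi, averaged 41.4 TPM (23.5 to 59.3). These ranges overlap, so the order of the pair is not beyond the spread between libraries. Leading members of other families were SLC20A2 at 36.3 TPM, SLC26A5 at 26.7, SLC12A4 at 25.8, SLC4A2 at 20.7, SLC41A1 at 19.6, SLC24A3 at 7.12, SLC8A1 at 5.21 and SLC34A2 at 1.38.

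Several members best known from specialised tissues were at the floor. SLC9A4, an exchanger of the stomach, and SLC30A8, the zinc carrier of insulin granules, had 0 counts in all 6 libraries, which allows up to 3 counts in each. The other 7 members under the minimum of 10 counts were SLC8A2, SLC24A1, SLC26A6, SLC26A7, SLC26A9, SLC30A3 and SLC39A12. A further 8 reached that minimum but not the filter for testing, namely SLC4A8, SLC4A9, SLC9A2, SLC12A1, SLC26A1, SLC26A4, SLC30A10 and SLC34A1. SLC4A1, the band 3 anion exchanger of red cells, stayed between 0.242 and 0.682 CPM in every library.

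The first question was which carriers differ between the fractions with and without ALDH activity. In edgeR's quasi-likelihood test over all 12811 genes tested, 6 of the 54 tested members passed an adjusted p of 0.05, 5 of them lower and 1 higher in ALDH+ cells. Among the 5, SLC12A5 and SLC24A4 reached the low-count filter's minimum in every ALDH- library, where they were high, but not in every ALDH+ library. Their entry into the test thus favoured a difference. The 6 are 11.1% of the tested members, while 6.14% of all genes passed, 5.3% lower and 0.835% higher. The ones that fell were the sodium/proton exchangers SLC9A5 and SLC9A9, the anion carrier SLC26A5, the potassium-chloride carrier SLC12A5 and the sodium/calcium exchanger SLC24A4. The one that rose was SLC41A2, a magnesium carrier. When the model took the line as a block, since both fractions share a culture, all 6 kept their calls and 4 more passed, which made 3 higher and 7 lower. This was 18.5% of the tested members, where 13.5% of all genes passed, 5.92% higher and 7.61% lower.

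**Figure D1:**
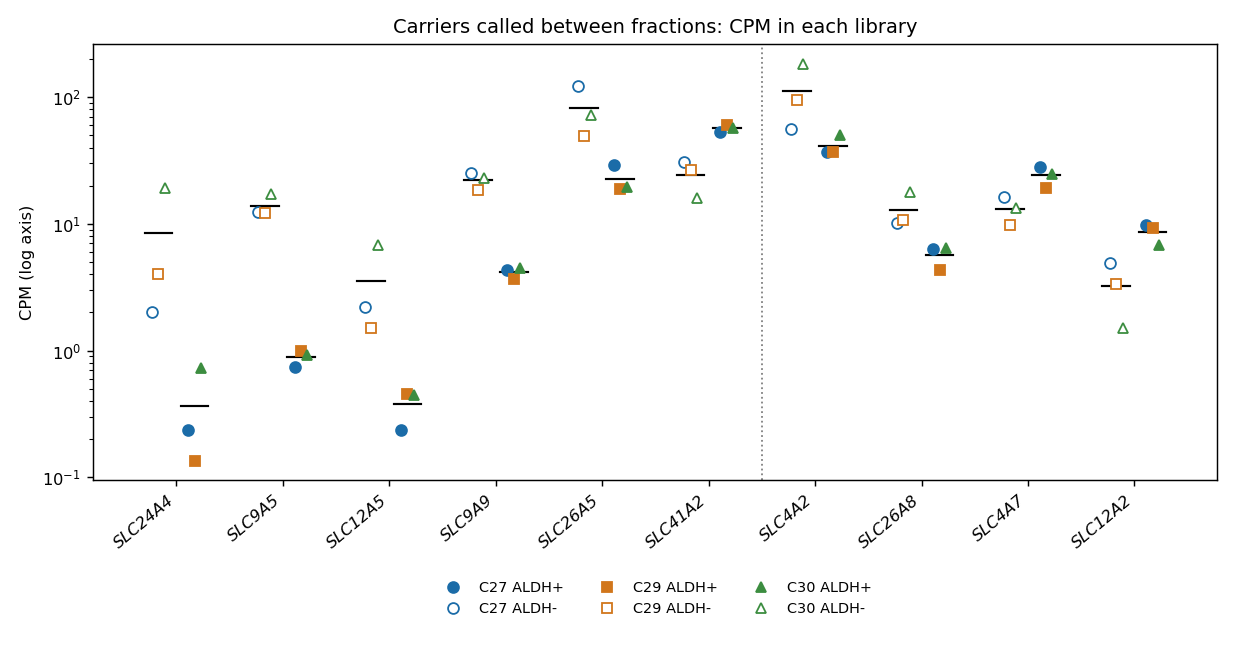
CPM on a log axis of the 10 members called between fractions, in each ALDH- (open) and ALDH+ (filled) library of lines C27, C29 and C30; short black bars are means of 3 libraries. Members left of the dotted line were called without the line as a block and those right of it only with the block. In all 10 the libraries of one fraction lie wholly above those of the other. The 10 were chosen by these calls, which favours such a gap, and 25.8% of all genes tested also had no overlap.

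SLC9A5 encodes NHE5, a sodium/proton exchanger that in mammals is found mostly in brain and cycles through endosomes. It stood at 12.3, 12.2 and 17.3 CPM in ALDH- cells (C27, C29 and C30, in this order throughout), and at 0.739, 0.994 and 0.929 CPM in the ALDH+ libraries. The fractions were far apart and each was tight, so that no library of one came near the other. The log2 change was -3.97 (SE 0.36, edgeR adjusted p = 0.0011; lower in 3 of 3 lines), the smallest unadjusted p among the members. Its call held in all 9 fits that left out 1 library or 1 line (adjusted p up to 0.0443).

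SLC9A9 encodes NHE9, an exchanger of late recycling endosomes that limits how acid they become. Its levels were 25.1, 18.6 and 22.8 CPM in ALDH- and 4.30, 3.66 and 4.48 CPM in ALDH+ cells. All 3 lines showed a drop of similar size, with log2 ratios within a line of -2.52, -2.32 and -2.33. Its log2 change was -2.42 (SE 0.28, edgeR adjusted p = 0.00217). It missed the threshold in 1 of the 9 fits, without both libraries of C29 (adjusted p = 0.0552, log2 -2.45).

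SLC26A5 encodes prestin, the motor protein of cochlear outer hair cells in mammals, whose relatives in birds and fish act as anion exchangers. It was by TPM the most abundant of the SLC26 genes. It stood at 122.9, 49.5 and 72.2 CPM in ALDH- cells, against 29.2, 18.8 and 19.5 CPM in ALDH+. The highest ALDH+ library, that of C27, lay below the lowest ALDH- library, that of C29. The log2 change was -1.86 (SE 0.37, edgeR adjusted p = 0.0244). This call ended on leaving out ALDH- of C30 (adjusted p = 0.077), ALDH+ of C29 (0.0933) or of C30 (0.085), or any whole line (0.0595 to 0.112), and with library size scaling (0.0526). SLC26A5 was also not called by limma on log2 TPM without the block. The blocked model called it (adjusted p = 0.0036).

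SLC12A5 encodes KCC2, the potassium-chloride carrier that keeps chloride low in neurons. It was scarce, at 2.20, 1.51 and 6.83 CPM in ALDH- and 0.235, 0.452 and 0.444 CPM in ALDH+ cells. SLC24A4 encodes NCKX4, a potassium-dependent sodium/calcium exchanger. Its levels were 2.01, 4.04 and 19.1 CPM in ALDH- and 0.235, 0.136 and 0.727 CPM in ALDH+ cells. Both were highest in the ALDH- library of C30.

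The log2 changes were -3.21 for SLC12A5 (SE 0.705, edgeR adjusted p = 0.0346) and -4.50 for SLC24A4 (SE 1.02, adjusted p = 0.0404). Leaving out ALDH- of C30 brought them to -2.24 (adjusted p = 0.118) and -2.97 (adjusted p = 0.122). SLC12A5 was called in 2 of the 9 leave-out fits, without the ALDH- library of C27 or of C29, and SLC24A4 in 2, without the ALDH- library of C27 or without all of C30. Limma-voom called neither gene. Both reached the low-count filter's minimum in every ALDH- library but not in every ALDH+ library, as did SLC4A10. SLC4A5 and SLC24A2 reached it in every ALDH+ library but not in every ALDH- library. Entry in this way favours a difference between the fractions but does not force one. SLC4A10, SLC4A5 and SLC24A2 were not called without the block (edgeR adjusted p = 0.0906, 0.386 and 0.209).

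SLC41A2, a magnesium carrier, went the other way. It stood at 30.9, 26.6 and 15.9 CPM in ALDH- cells, and at 52.7, 60.4 and 57.0 CPM in ALDH+. The ALDH+ libraries lay close together above all ALDH- libraries. The log2 change was 1.21 (SE 0.29, edgeR adjusted p = 0.0476), and 1.26 in the blocked model (adjusted p = 0.0231). Of the 9 leave-out fits only that without the ALDH- library of C27 kept the call without the block (adjusted p elsewhere up to 0.291), and library size scaling ended it (0.0556). Limma on log2 TPM without the block also did not call SLC41A2 with a pseudocount of 0.1 or with no filter. The other magnesium carriers did not pass, with SLC41A1 at 0.05 (adjusted p = 0.926) and the mitochondrial SLC41A3 at 0.62 (adjusted p = 0.32).

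**Figure D2:**
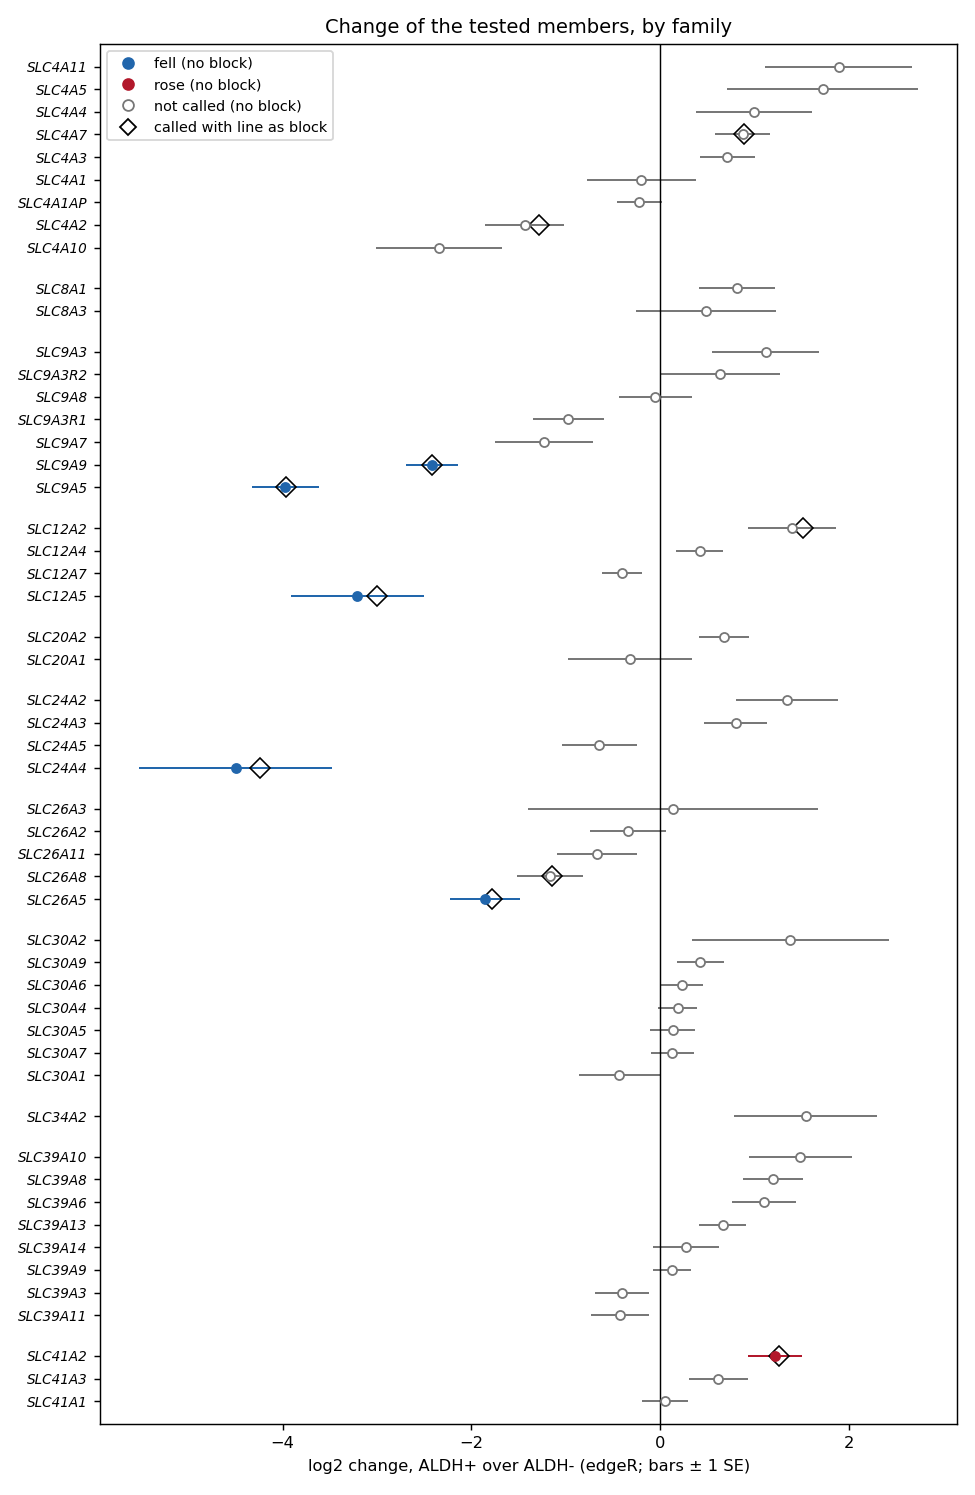
Log2 change in CPM, ALDH+ over ALDH-, of 52 of the 54 tested members by family, with bars of 1 SE from edgeR without the block; blue points fell, red points rose, and diamonds give the value with the line as a block where that fit made a call. The 5 members that fell lie between -1.86 and -4.50, and the 1 that rose lies at 1.21.

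Family SLC4, which holds most bicarbonate carriers, had 9 tested members with kanadaptin among them. In edgeR 0 of the 9 were called without the block, and 5 had an unadjusted p under 0.05. Here and below, the share of all genes at that unadjusted cutoff is not given. DESeq2 called SLC4A2 and SLC4A10 lower, and limma-voom called none. With the block SLC4A2 fell and SLC4A7 rose. SLC4A2 encodes AE2, a widespread chloride/bicarbonate exchanger that lets bicarbonate out of the cell. It stood at 55.8, 95.3 and 183.1 CPM in ALDH- and 36.9, 36.7 and 50.0 CPM in ALDH+ cells. The ALDH- libraries varied widely, with C30 highest, while the ALDH+ libraries were alike. Its log2 change was -1.44 (SE 0.42, edgeR adjusted p = 0.0947), and -1.29 with the block (SE 0.28, adjusted p = 0.0265).

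SLC4A7 encodes NBCn1, a sodium-bicarbonate carrier that brings bicarbonate in. Its levels were 16.3, 9.78 and 13.3 CPM in ALDH- and 28.3, 19.3 and 24.8 CPM in ALDH+ cells. The difference within a line was nearly the same in all 3, with log2 ratios of 0.79, 0.97 and 0.89. The log2 change was 0.88 (SE 0.29, edgeR adjusted p = 0.139), and 0.89 with the block (SE 0.21, adjusted p = 0.0378). The electrogenic bicarbonate carrier SLC4A4 passed in neither of these fits (log2 1.00, adjusted p = 0.403), nor did SLC4A11, a family member of corneal endothelium that is not known to carry bicarbonate (log2 1.89, adjusted p = 0.221). SLC4A11 stood at 8.24 CPM in the ALDH+ library of C30 and at 0.568 to 2.58 CPM in the others.

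Of the 9 tested SLC9 genes, SLC9A5 and SLC9A9 were called in edgeR with TMM factors, with or without the block. The Golgi exchanger SLC9A7 stood at a log2 change of -1.24 (edgeR adjusted p = 0.231). SLC9A8, another Golgi exchanger, averaged 53.9 and 52.1 CPM, but its lines went different ways, with log2 ratios of -0.94 in C27, 0.90 in C29 and -0.06 in C30. The scaffold genes SLC9A3R1 (-0.97, adjusted p = 0.193) and SLC9A3R2 (0.64, adjusted p = 0.6) had opposite signs, and neither passed with the block and TMM factors (adjusted p = 0.0827 and 0.0689). SLC9A3R2 was called higher with the block and upper quartile factors, library size only or log2 TPM.

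Of the 4 tested chloride carriers of family SLC12, SLC12A5 fell and, with the block, SLC12A2 rose. SLC12A2 encodes NKCC1, which loads chloride together with sodium and potassium into the cell. It stood at 4.92, 3.35 and 1.49 CPM in ALDH- and 9.73, 9.26 and 6.78 CPM in ALDH+ cells, higher in ALDH+ in all 3 lines. The log2 change was 1.39 (SE 0.47, edgeR adjusted p = 0.14), and 1.52 with the block (SE 0.33, adjusted p = 0.0275). The potassium-chloride carriers that let chloride out and are found in most tissues did not pass. SLC12A4 (KCC1) averaged 53.4 ± 8.01 and 71.4 ± 16.2 CPM (log2 0.42, SE 0.25, adjusted p = 0.39), and SLC12A7 (KCC4) stood at -0.40 (adjusted p = 0.341).

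Among 5 tested SLC26 anion carriers, SLC26A5 fell and, with the block, so did SLC26A8, an anion carrier known from testis. SLC26A8 stood at 10.2, 10.8 and 17.7 CPM in ALDH- and 6.34, 4.33 and 6.46 CPM in ALDH+ cells, without overlap. Its log2 change was -1.17 (SE 0.35, edgeR adjusted p = 0.103), and -1.15 with the block (SE 0.28, adjusted p = 0.0391). The sulfate carriers SLC26A2 (-0.34, adjusted p = 0.67) and SLC26A11 (-0.67, adjusted p = 0.413) did not pass. SLC26A11 stood at 3.31 CPM in the ALDH+ library of C30 and at 7.36 to 12.7 CPM in the other libraries.

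Of the calcium exchangers, edgeR with TMM factors called SLC24A4, with or without the block. SLC8A1, the sodium/calcium exchanger best known from heart muscle, averaged 7.59 ± 4.02 CPM in ALDH- and 13.4 ± 1.99 CPM in ALDH+ cells (log2 0.81, SE 0.40, edgeR adjusted p = 0.3). Each of the 3 lines had more in ALDH+, and leaving out ALDH- of C27 made it pass (adjusted p = 0.0476), as did the block on log2 TPM (limma adjusted p = 0.0115) or with library size scaling. SLC24A3 averaged 11.6 ± 4.09 and 20.2 ± 4.71 CPM (log2 0.80, SE 0.34, adjusted p = 0.23, and 0.0154 in limma with the block on log2 TPM), and the pigment gene SLC24A5 stood at -0.65 (adjusted p = 0.402). In edgeR with TMM factors neither phosphate carrier of family SLC20 passed, with or without the block, and SLC34A2, a phosphate carrier that is an ovarian carcinoma antigen in humans, stood at 1.54 (SE 0.76, adjusted p = 0.301). SLC34A2 was at 0.719, 3.44 and 3.29 CPM in ALDH- and 3.29, 3.88 and 14.4 CPM in ALDH+ cells, so the fractions met in CPM. They did not meet in TPM, at 0.199, 0.788 and 0.600 against 1.12, 1.04 and 4.56, and each of the 3 lines had more in ALDH+. The block called SLC34A2 higher with library size only, on log2 TPM, and without line C29. SLC20A2 averaged 71.5 ± 15.3 and 114.6 ± 28.6 CPM (log2 0.68, SE 0.26, adjusted p = 0.196). It passed with the block on log2 TPM (limma adjusted p = 0.0136) and with the block without line C29 (edgeR adjusted p = 0.0221). With the block and without line C27, or without line C30, neither SLC20A2 nor SLC34A2 was called.

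The zinc carriers were the largest group, with 15 tested members of 19, and edgeR with TMM factors called 0 of them with or without the block (4 had an unadjusted p under 0.05 without it, and 5 with it). DESeq2 called SLC39A6 (1.13, adjusted p = 0.0288) and SLC39A8 (1.22, adjusted p = 0.00808) higher, and limma-voom called 0 (4 at an unadjusted p under 0.05). On log2 TPM limma called SLC39A8 higher (adjusted p = 0.0493). The block with other scaling called SLC39A8 with RLE factors, SLC39A6 as well with upper quartile factors, and SLC39A10 besides these with library size only, all higher. On log2 TPM with the block 5 were called higher, SLC30A9 and SLC39A13 being the others, in a fit that called 26.3% of all genes. SLC39A8 encodes ZIP8, which brings zinc and manganese into cells. It stood at 17.7, 15.7 and 12.9 CPM in ALDH- and 28.5, 26.6 and 50.9 CPM in ALDH+ cells, apart in every line (log2 1.19, SE 0.32, edgeR adjusted p = 0.0762, and 0.0551 with the block). SLC39A6, or ZIP6, stood at 11.2, 12.1 and 10.8 CPM and 24.81, 14.32 and 33.99 CPM (log2 1.099, SE 0.34, adjusted p = 0.116). In both the ALDH+ library of C29 was the lowest of the 3 ALDH+ libraries.

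SLC39A10 and SLC39A13 also had no overlap between the fractions, with log2 changes of 1.48 (SE 0.54, edgeR adjusted p = 0.173) and 0.66 (SE 0.25, adjusted p = 0.181). These 2 and SLC39A6 and SLC39A8 made 4 of 8 tested importers without overlap, all higher in ALDH+. Of all tested members 42.6% had no overlap, and of the 15 tested zinc carriers 26.7%. Over all genes, 25.8% had no overlap, 11.2% with ALDH+ higher. With the block and without line C29 all 4 passed (adjusted p = 0.0315, 0.0352, 0.00539 and 0.0152 for SLC39A10, SLC39A13, SLC39A6 and SLC39A8), a fit chosen after the data were examined. That fit called 16 of its 53 tested members, 9 higher and 7 lower, and its share of all genes called is not given. The same fit without line C27, or without line C30, called 0 zinc carriers. SLC39A14, which carries zinc, manganese and iron, stood at 0.27 (adjusted p = 0.699), and SLC39A9 at 0.12 (adjusted p = 0.758).

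The 7 tested exporters of family SLC30 spanned log2 changes from -0.44 to 1.38, with 0 of 7 at an unadjusted p under 0.05 in edgeR, DESeq2 or limma-voom and 1 in edgeR with the block. The Golgi carriers were close between fractions. SLC30A5 averaged 79.8 ± 17.8 and 87.5 ± 13.4 CPM (log2 0.13, SE 0.24, edgeR adjusted p = 0.793), SLC30A6 stood at 0.23 (adjusted p = 0.601) and SLC30A7 at 0.13 (adjusted p = 0.783). The plasma membrane exporter SLC30A1 stood at 13.8, 13.4 and 14.8 CPM in ALDH- but spread over 8.996, 5.058 and 16.96 CPM in ALDH+ cells (log2 -0.44, adjusted p = 0.6).

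**Figure D3:**
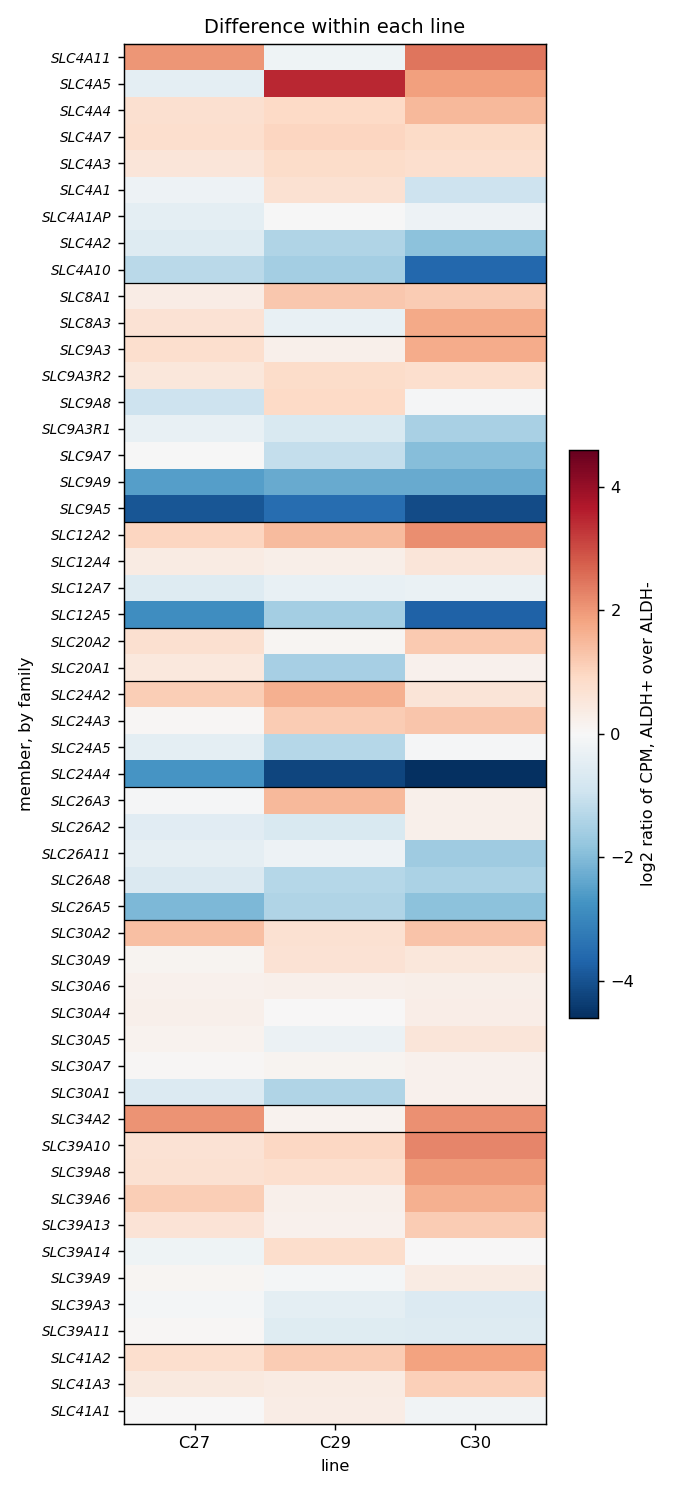
Log2 ratio of CPM, ALDH+ over ALDH-, within each of lines C27, C29 and C30 (columns) for 52 of the 54 tested members (rows, split by family with black lines); red is higher and blue lower in ALDH+. SLC9A5, SLC9A9 and SLC24A4 are blue in all 3 columns, while SLC20A1 and SLC9A8 change colour between columns.

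Within lines, 23 of the 54 tested members (42.6%) were higher in ALDH+ in all 3 lines and 16 (29.6%) lower in all 3. Over all genes tested the shares were 28.4% and 27.8%. The remaining 15 differed in sign between lines. Log2 changes lay above 0 in 32 of the 54 and in 50.2% of all genes. The median log2 change of the tested members was 0.16, and that of all genes 0.00. The scaling moved both, to 0.28 and 0.12 with upper quartile factors, 0.33 and 0.18 with library size only, and 0.57 and 0.36 on the log2 TPM scale, where 45 members were tested. With the block and log2 TPM, 20 members passed, 15 higher and 5 lower (75% higher), in place of 3 and 7 (30%) with the block and TMM, and 9 and 7 (56.2%) with library size only. These fits called 26.3%, 13.5% and 17.1% of all genes tested, and among all genes called 75.7%, 43.7% and 57.8% were higher. SLC9A5, SLC9A9, SLC24A4 and SLC26A5 were lower in each of these fits.

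Summed over members, the zinc importers held 128.8, 111.2 and 72.5 TPM in ALDH- cells and 209.8, 151.9 and 227.1 TPM in ALDH+. The magnesium carriers held 37.7, 26.2 and 21.6 TPM and 59.1, 48.8 and 56.6 TPM. In both families all ALDH+ libraries lay above all ALDH- libraries, on a scale where the median gene also stood 0.36 log2 units higher in ALDH+. The SLC26 family went from 116.8, 38.9 and 41.8 TPM to 69.8, 27.5 and 23.0 TPM, a sum lower in ALDH+ in each line. The ALDH+ library of C27 still lay above the ALDH- libraries of the other lines. SLC26A5, already called lower, went from 68.56, 22.71 and 26.46 TPM to 19.98, 10.17 and 12.39 TPM. In C27 and C29 this fall was larger than that of the family sum, and in C30 it was smaller. The sums thus show no fall of the other SLC26 members together in C27 and C29. SLC9 genes, scaffolds included, summed to 132.5 to 198.3 TPM in ALDH- and 145.3 to 201.9 TPM in ALDH+, with overlap.

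The members have 141 transcripts, and 38 members have more than 1. In the authors' deposited table, which compares transcripts with DESeq2, 13 transcripts of 12 members had a false discovery rate under 0.05, 5 higher and 8 lower in ALDH+ cells. Each of the 6 genes called in edgeR was among the 12. The 13 are 13.7% of the 95 member transcripts with a value in that column of the authors' deposited table, where 9.12% of all transcripts with a value passed. The authors' deposited table also holds a stricter adjusted p, whose values match Hochberg's adjustment over all transcripts. By that column 2 member transcripts passed 0.05, 1 each of SLC9A5 and SLC9A9, or 1.64% of the 122 with a value, where 2.4% of all transcripts passed. For SLC26A5, 1 of 4 transcripts carried nearly all of the signal, ENSGALT00000093387, at 67.8, 20.3 and 26.4 TPM in ALDH- and 18.19, 9.424 and 11.48 TPM in ALDH+. The authors' deposited table gives that transcript a log2 change of -1.9 (SE 0.45, false discovery rate 0.0005, stricter adjusted p 0.49). Both transcripts of SLC9A9 were lower, by -2.6 and -1.9 in the authors' deposited table (false discovery rate 0.0199 for the second).

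For SLC4A2, SLC4A7 and SLC20A2 the values of single transcripts are given side by side. The second transcript of SLC4A2, ENSGALT00000080161, was listed at 2.16, 7.49 and 18.1 TPM in ALDH- and at 0, 0.561 and 2.25 TPM in ALDH+, while the main one, ENSGALT00000070387, was at 15.4, 17.5 and 20.5 TPM and 14.2, 10.6 and 15.7 TPM. In the authors' deposited table neither reached a false discovery rate of 0.05 (0.2327 and 0.0905). Of the 7 SLC4A7 transcripts, ENSGALT00000096470 was higher in the authors' deposited table (log2 1.7, SE 0.44, false discovery rate 0.0027), and ENSGALT00000094235 stood at -0.1 (SE 0.46, 0.9664). For SLC20A2 the authors' deposited table gives 1.8 (SE 0.47, 0.0027) for ENSGALT00000060847 and 0.5 (SE 0.30, 0.4177) for ENSGALT00000051992. Estimated counts are shared out between overlapping transcripts, so such splits are less certain than gene sums, and the difference between transcripts was not tested.

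A further question was whether carriers differ between the lines. With the fraction in the model, edgeR called 47 of 12811 genes between lines (0.367%) and 1 of the 54 tested members, SLC26A3. This gene encodes DRA, the chloride/bicarbonate exchanger of the gut surface in mammals. It stood at 25.7 TPM in the ALDH- and 30.3 TPM in the ALDH+ library of C27, at 1.72 and 5.78 TPM in C29, and at 0.195 and 0.399 TPM in C30. Both fractions kept the same order of lines (edgeR adjusted p = 0.0308). Each line is 1 culture, so this compares these cultures. Without C27 no member was called between the other lines (5 at an unadjusted p under 0.05).

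**Figure D4:**
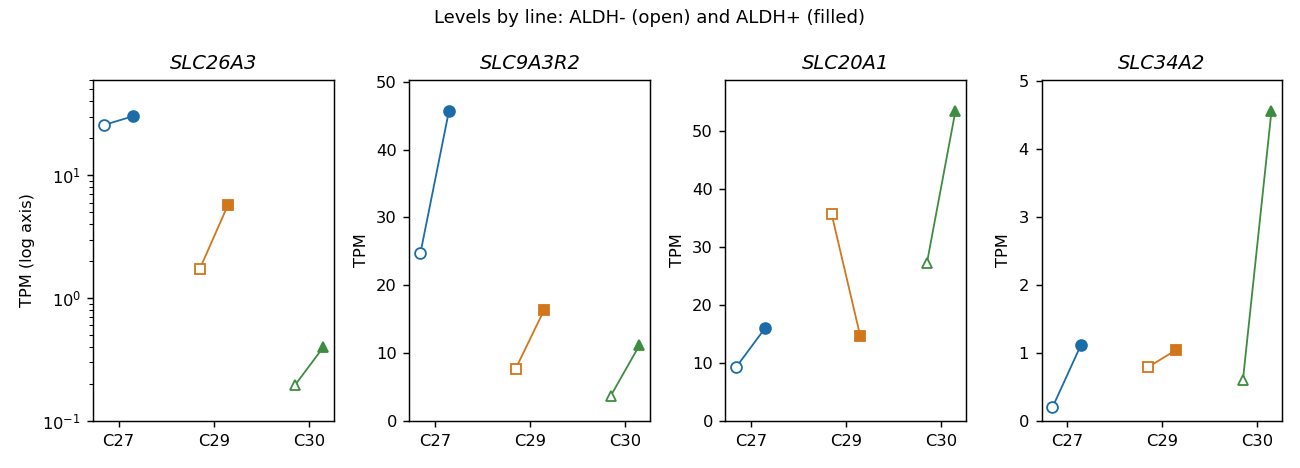
TPM of 4 members in each line, ALDH- (open) joined to ALDH+ (filled), with a log axis for SLC26A3 and linear axes from 0 for the others. SLC26A3 and SLC9A3R2 fall from C27 through C29 to C30 in both fractions, while SLC20A1 is lower in ALDH+ in C29 alone.

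The next member by unadjusted p was the scaffold gene SLC9A3R2, or NHERF2, at 24.7 and 45.7 TPM in C27, 7.69 and 16.4 TPM in C29, and 3.72 and 11.2 TPM in C30 (edgeR adjusted p = 0.0564), named after its values were seen. It was called between lines with upper quartile factors, library size only, looser filters, limma-voom and log2 TPM. SLC20A1, the phosphate carrier PiT1, stood at 9.35, 35.7 and 27.3 TPM in ALDH- and 16.01, 14.67 and 53.58 TPM in ALDH+. Its log2 ratio within a line was 0.49 in C27, -1.51 in C29 and 0.18 in C30. With 1 library per line and fraction, a difference in response between lines could not be tested.

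Genes that work with these carriers were taken in 4 lists with 57 tested genes, of which 5 fell and 0 rose, and with the block 10 fell and 4 rose. Over all genes 6.14% were called without the block and 13.5% with it. Leaving out any 1 of 4 libraries (ALDH- of C30, or ALDH+ of any line) left 1 partner gene called, leaving out ALDH- of C29 left 3, and leaving out ALDH- of C27 gave 10. For these leave-out fits the share of all genes called is not given. Among 9 tested ATPase pump genes, ATP1B1, a beta subunit of the sodium pump whose sodium gradient drives many of these carriers, fell from 71.2 ± 27.4 to 23.5 ± 8.38 CPM (SD, n = 3; log2 -1.60, edgeR adjusted p = 0.0498). ATP2A3, a calcium pump of the endoplasmic reticulum, fell with the block only (log2 -2.77, adjusted p = 0.0247).

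Of 18 tested regulators of ion carriers, TESC and SGK3 fell. TESC encodes tescalcin, a calcium-binding protein, and stood at 28.9, 6.61 and 50.9 CPM in ALDH- and 1.31, 2.71 and 0.484 CPM in ALDH+ cells (log2 -4.27, edgeR adjusted p = 0.025). SGK3, an endosomal kinase, stood at 148.3, 126.9 and 165.2 CPM against 71.4, 68.2 and 57.2 CPM (log2 -1.16, adjusted p = 0.0171). With the block OXSR1, a kinase that activates NKCC1, rose (log2 1.22, adjusted p = 0.0203), as did CAB39L (1.25, adjusted p = 0.0286). SLC12A2, which encodes NKCC1, was also higher in that fit. Without the block neither OXSR1 nor SLC12A2 was called (edgeR adjusted p = 0.0527 and 0.14). The kinase genes STK39 and WNK1 of the same list were called in neither fit, and a link between these genes was not tested.

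Of 24 tested genes of metal handling, SLC31A2 and SLC11A1 fell. SLC31A2, a copper carrier of endosomes, stood at 31.7, 44.6 and 74.8 CPM in ALDH- and 5.91, 8.99 and 4.97 CPM in ALDH+ cells (log2 -2.93, edgeR adjusted p = 0.00446). SLC11A1, the metal carrier NRAMP1 of macrophage phagosomes, stood at 1.44, 11.9 and 13.4 CPM against 0.772, 0.994 and 0.727 CPM (log2 -3.42, adjusted p = 0.0416). With the block ATP13A2, SLC31A1 and CCS also fell, and SLC40A1, the iron exporter ferroportin, rose (log2 1.08, adjusted p = 0.038). The metallothionein genes, whose proteins bind zinc, did not pass, with MT4 at -0.35 (adjusted p = 0.505) and MT3 at 0.48 (adjusted p = 0.343). Among 6 tested carbonic anhydrases edgeR called 0 without the block (2 at an unadjusted p under 0.05), and with it CA5B rose (1.92, adjusted p = 0.0135) and CA2 fell (-1.73, adjusted p = 0.0438).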

How the data were processed

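Paired-end reads of 125 bases came from total RNA of the 6 libraries. Per the submitters' processing notes, FastQC, Trimmomatic, HISAT2, kallisto and DESeq2 were used with build GRCg6a; for none of them do the labels give a version. The authors deposited estimated counts and TPM per transcript for each library. The authors' deposited table of DESeq2 results holds log2 fold changes and 2 kinds of adjusted p-value per transcript. Checked against its unadjusted p-values, 1 kind matched Benjamini-Hochberg adjustment over 20445 transcripts, to 4 decimals, and the other Hochberg adjustment over 25357. Nothing in the sources says whether strand was used.

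From these files, the 28756 transcripts were summed to 16963 genes by gene ID and rounded. The 319 transcripts without a gene ID (0.28 to 0.33% of counts) were left out. Genes were filtered with edgeR's filterByExpr (minimum count 10, minimum total 15), scaled with TMM factors and tested with edgeR 4.0.16 (R 4.3.3) by the quasi-likelihood test, two-sided, with Benjamini-Hochberg adjustment over all 12811 genes at 0.05. SE is the log2 change divided by the root of F. Ratios within a line use log2 CPM with a prior count of 2. Lines were compared with an F test with the fraction in the model. Alternatives were DESeq2 1.42.0, limma 3.58.1 (voom, and log2 TPM with a pseudocount of 1 or 0.1), other scaling and filters, and leaving out each library or line.

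The line pairs the samples, since both fractions of a line come from 1 culture. After subtraction of group means, the fractions of a line correlated at 0.66 (C27), 0.17 (C29) and 0.49 (C30). The model without the line is the primary one. Scripts were tested on simulated data. Members, gene lists and named genes were chosen with earlier results of these data known. By rule, the text names in full the members called, those called only with the block or between lines, the most abundant of each family, and called partner genes. Other members and partners, such as SLC39A6 and SLC9A3R2, were added after their values were seen. Of the 71 members, 70 matched the RefSeq gene table by symbol. No sequence or coordinate is given, since the reference table is of another build. Some members and partner genes counted above are not reported here by name.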

Additional observations from a re-analysis of the deposited data

How the results depend on the processing

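With 6 of the 54 tested members (51 of them carriers) called without the line as a block, the replicate block gave 10 of 54. DESeq2 gave 12 of 69 members in its fit, and log2 TPM gave 3 of 45 with a pseudocount of 0.1 and 2 of 69 with no filter. Alternatives chosen after the data were seen gave, for the block, 11 under RLE, 13 under upper quartile, 16 under library size and 20 under log2 TPM scaling. Of all genes these 4 fits called 13.8%, 15.4%, 17.1% and 26.3%, against 6.14% in the primary fit and 13.5% with the block and TMM. Leaving out a library or a line gave 1 to 8 without the block, and leaving out a line with the block, also added later, gave 6 to 16. The share of all genes called is not given for DESeq2, voom, the looser filters or these log2 TPM fits without the block. It is also not given for the leave-out fits or the alternatives between lines. Counts of members or partner genes in these fits therefore cannot be set against all genes. Of the 6, SLC9A5 was called under all 27 of its alternatives and SLC9A9 under 26, while SLC26A5 lost its call under 10, SLC12A5 and SLC24A4 under 10 each and SLC41A2 under 11; no named gene that was called changed direction. Between lines, where 1 member was called, upper quartile factors gave 2, library size only 3, a total count of 10 as filter 2, no filter 3, voom 2, log2 TPM 2 and the model without the fraction 0 (4 at an unadjusted p under 0.05), and leaving out a line gave 0 to 8. The median log2 change of 0.16 became 0.28 under upper quartile scaling, 0.33 under library size, 0.57 and 0.58 on log2 TPM with pseudocounts of 1 and 0.1, 0.305, 0.37 and 0.57 with the block and upper quartile factors, library size only or log2 TPM, and 0.13 to 0.30 without a library or line. For the 57 partner genes, 5 called became 14 with the block, 12 with DESeq2, 2 with voom, 3 and 2 on log2 TPM with a pseudocount of 0.1 and with no filter, and 13, 16, 16 and 22 with the block and RLE factors, upper quartile factors, library size only or log2 TPM. Leaving out a library or line gave 1 to 10 partner genes without the block, and leaving out a line with it 6 to 17. The cause of these differences was not tested. Looser filters tested 62 members (10 or more counts in total) or 69 (no filter) and still called 6; the 9 members under 10 counts have little depth to show a difference.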
